A study of Mus musculus with 6 samples.

Results

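The DNA replication, nucleotide supply and S-phase genes described here are a list of 51 genes that was drawn up by function: origin licensing and firing factors, the sliding clamp and its loader, replicative polymerases, strand binding and joining proteins, enzymes of DNA precursor supply, and S-phase repair, checkpoint and chromatin genes. These genes, and the related lists set beside them below, were chosen with earlier results of these data known. Each gene was read from probe sets annotated to 1 gene, where a probe set is a group of short probes that read a transcript. Of the 51 genes, 50 had such a probe set, among 18193 genes in all, and Chaf1a was not measured. The data are 6 Affymetrix mouse expression arrays of AD-MSCs, of which 3 carried the CD73+ and 3 the CD73- subgroup. AD-MSCs, adipose-derived mesenchymal stromal cells, were grown out of the groin fat of adult C57BL/6 mice, and cells of both subgroups had been sorted on surface CD73 by flow cytometry, grown on in low-sugar DMEM with fetal bovine serum, and taken at the fifth passage. How many mice or cultures stood behind the 3 arrays of a subgroup is not given in the sources used here, so the p-values measure only array-to-array spread, possibly technical. The comparison asks how the transcripts of the replication machinery differed between the subgroups.

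DNA replication is set up before S phase, when the origin recognition complex, Cdc6 and Cdt1 load the MCM helicase onto DNA. Kinases, Cdc45 and the GINS complex then turn the loaded helicase on. Polymerases alpha, delta and epsilon copy the strands behind it, with delta and epsilon held to DNA by the clamp PCNA. Many of these genes, and those of the enzymes that supply deoxynucleotides, are transcribed in waves driven by E2F factors, so that their transcripts are more abundant in dividing than in resting cells. Cultured stromal cells are a mixture of cells in all phases of the cycle. In bulk RNA, more cells in a phase and more RNA per cell cannot be told apart.

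The promoters of the listed genes were searched for short words that the choice of genes did not use. The RefSeq promoter table (GRCm38.p6), which gives 250 bases before and 50 after a gene's start, held 52 promoters of 43 of the 51 genes. An E2F word, meaning TTTCCCGC, TTTCGCGC, TTTGCCGC or TTTGGCGC on either strand, lay in 16 of these 52 promoters (30.8%), against 2.26% of all 32851 promoters. The NF-Y word CCAAT lay in 31 of them (59.6%), against 37.4% of all promoters. The word TTTGAA of late cell cycle genes lay in 6 of them (11.5%), against 17.9%. Neither group of genes, those that rose and those that did not pass, was free of E2F words: they lay in promoters of 4 of 9 genes that rose and had an entry (Dnmt1, Lig1, Pole2 and Uhrf1) and of 12 of 32 that did not pass, among them Mcm3, Mcm5, Mcm6 and Mcm7. CCAAT lay in promoters of 5 of 9 genes that rose and of 20 of 32 that did not pass, and in those of Orc2. A match describes the letters and shows no binding.
The 250 bases before the start are printed 5′ to 3′ for 4 genes, with matches to these words on either strand in capitals. Rrm2 and Rrm1 rose and carry CCAAT. Mcm6 did not pass and carries CCAAT as well as E2F words that overlap on both strands. Orc2 was lower on the deposited scale and has no match in this stretch. For Orc2, CCAAT does lie shortly after this start and before the start of its other promoter entry. The Rrm2 stretch is chr12:24708004-24708253 on the plus strand, that of Rrm1 is chr7:102441445-102441694 on the plus strand, that of Mcm6 is chr1:128359706-128359955 on the minus strand and that of Orc2 is chr1:58505110-58505359 on the minus strand.
Rrm2: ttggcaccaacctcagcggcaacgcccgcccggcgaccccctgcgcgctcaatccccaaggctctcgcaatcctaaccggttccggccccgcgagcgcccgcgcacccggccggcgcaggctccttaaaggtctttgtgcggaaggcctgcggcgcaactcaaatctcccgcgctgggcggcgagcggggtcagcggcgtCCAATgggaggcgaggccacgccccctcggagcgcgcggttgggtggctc
Rrm1: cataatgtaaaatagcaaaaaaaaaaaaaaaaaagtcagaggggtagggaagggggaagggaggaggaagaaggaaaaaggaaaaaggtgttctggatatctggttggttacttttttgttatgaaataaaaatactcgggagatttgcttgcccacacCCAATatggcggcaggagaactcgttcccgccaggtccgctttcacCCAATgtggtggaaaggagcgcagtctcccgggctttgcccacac
Mcm6: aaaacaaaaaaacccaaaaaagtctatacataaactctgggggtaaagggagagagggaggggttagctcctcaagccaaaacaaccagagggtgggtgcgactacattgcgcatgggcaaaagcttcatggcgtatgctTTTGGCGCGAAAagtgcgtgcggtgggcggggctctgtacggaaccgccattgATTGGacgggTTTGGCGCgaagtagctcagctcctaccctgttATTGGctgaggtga
Orc2: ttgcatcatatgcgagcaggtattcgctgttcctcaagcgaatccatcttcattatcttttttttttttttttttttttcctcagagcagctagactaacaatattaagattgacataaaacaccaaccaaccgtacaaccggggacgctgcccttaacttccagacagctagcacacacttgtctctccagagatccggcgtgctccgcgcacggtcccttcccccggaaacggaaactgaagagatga

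The arrays of the 2 subgroups were not alike in their controls. The 12 probe sets of the poly-A controls, bacterial transcripts spiked into a sample ahead of labelling, averaged 7.76 ± 0.068 (log2, SD, n = 3) on the CD73+ arrays and 8.69 ± 0.042 (SD, n = 3) on the CD73- arrays. Scaling the arrays to them moves the median difference over all genes from -0.018 to 0.91 and makes all 50 measured genes pass as higher in CD73+ AD-MSCs. It adds the same amount to every gene. Every direction below is therefore one on the deposited scale, relative to the bulk of transcripts. The Actb signal at the 3′ end minus that at the 5′ end, a sign of RNA quality, was 0.084 ± 0.014 (SD, n = 3) on the CD73+ and 0.19 ± 0.028 (SD, n = 3) on the CD73- arrays. The same measure for Gapdh was -0.27 ± 0.035 (SD, n = 3) and -0.30 ± 0.023 (SD, n = 3). The sorted gene, Nt5e, which encodes CD73, averaged 7.73 ± 0.12 (log2, SD, n = 3) on the CD73+ arrays and 6.84 ± 0.45 (SD, n = 3) on the CD73- arrays. Of 10 stromal markers 9 lay above the lower quartile of all probe sets in both subgroups and Lum below it (3.51 in CD73+ and 3.64 in CD73-). Of the 10, 6 were higher in CD73+ AD-MSCs, with the mean log2 signal of the list at 9.47 to 9.50 on the CD73+ and 9.01 to 9.03 on the CD73- arrays. Of 8 haematopoietic markers 2 were higher, Csf1r and Cd14, with list means of 5.07 to 5.11 and 4.86 to 4.97 on the CD73+ and the CD73- arrays. Ptprc, the pan-leukocyte marker CD45, at 3.06 and 3.19, and the myeloid marker Itgam, at 3.25 and 3.32, lay below the lower quartile of all probe sets (3.86), and the other 6, Csf1r and Cd14 included, lay above it in both subgroups. Of 6 mural markers 1, Cnn1, was higher, with list means of 5.89 to 5.94 and 5.77 to 5.82. In limma 0 of 7 endothelial markers (list means 4.33 to 4.41 and 4.30 to 4.40) and 0 of 4 adipocyte markers (3.36 to 3.38 and 3.28 to 3.35) passed, and 0 of either list had an unadjusted p under 0.05. The part of these differences in the results below was not tested.

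Tk1, Rrm1 and Rrm2, which are 3 of the 5 listed enzymes of DNA precursor supply, the licensing inhibitor Gmnn and the DNA methylation pair Dnmt1 and Uhrf1 were higher in CD73+ AD-MSCs, while Orc2, a subunit of the origin recognition complex, was lower on the deposited scale, a direction that scaling to the poly-A controls turns. The MCM helicase and most polymerase genes did not pass. Of the 50 measured genes, 12 passed as higher and 1 as lower at a limma adjusted p under 0.05, against 10.1% of all genes higher and 12.6% lower. The 12 make 24% and the 1 makes 2% of the measured genes, so the higher share lay above and the lower share below that of all genes, and the 2 directions together came to 26%, near the 22.8% of all genes. The median log2 difference (CD73+ minus CD73-) was 0.079, against -0.018 over all genes. For 22 of the 50 genes every CD73+ array lay above every CD73- array (18.1% of all genes), and for 6 every CD73+ array lay below (22.7% of all genes), where 40.8% of all genes had no overlap in either direction.
The count of higher genes moved with the arrays and the filter. It was 7 when replicate 1 or 2 of CD73+, or replicate 2 of CD73-, was left out. When dim probe sets were left out of the test it was 19 of 49, but the share over all probe sets rose as well. Of the 22519 probe sets left, 5181 were higher, against 4408 of 45037 in the full test. The median was 0.049 without CD73- replicate 3 and 0.052 without CD73+ replicate 1. It exceeded the median of all genes by 0.096, and by 0.052 without CD73- replicate 3 to 0.12 without CD73+ replicate 3.

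**Figure D1:**
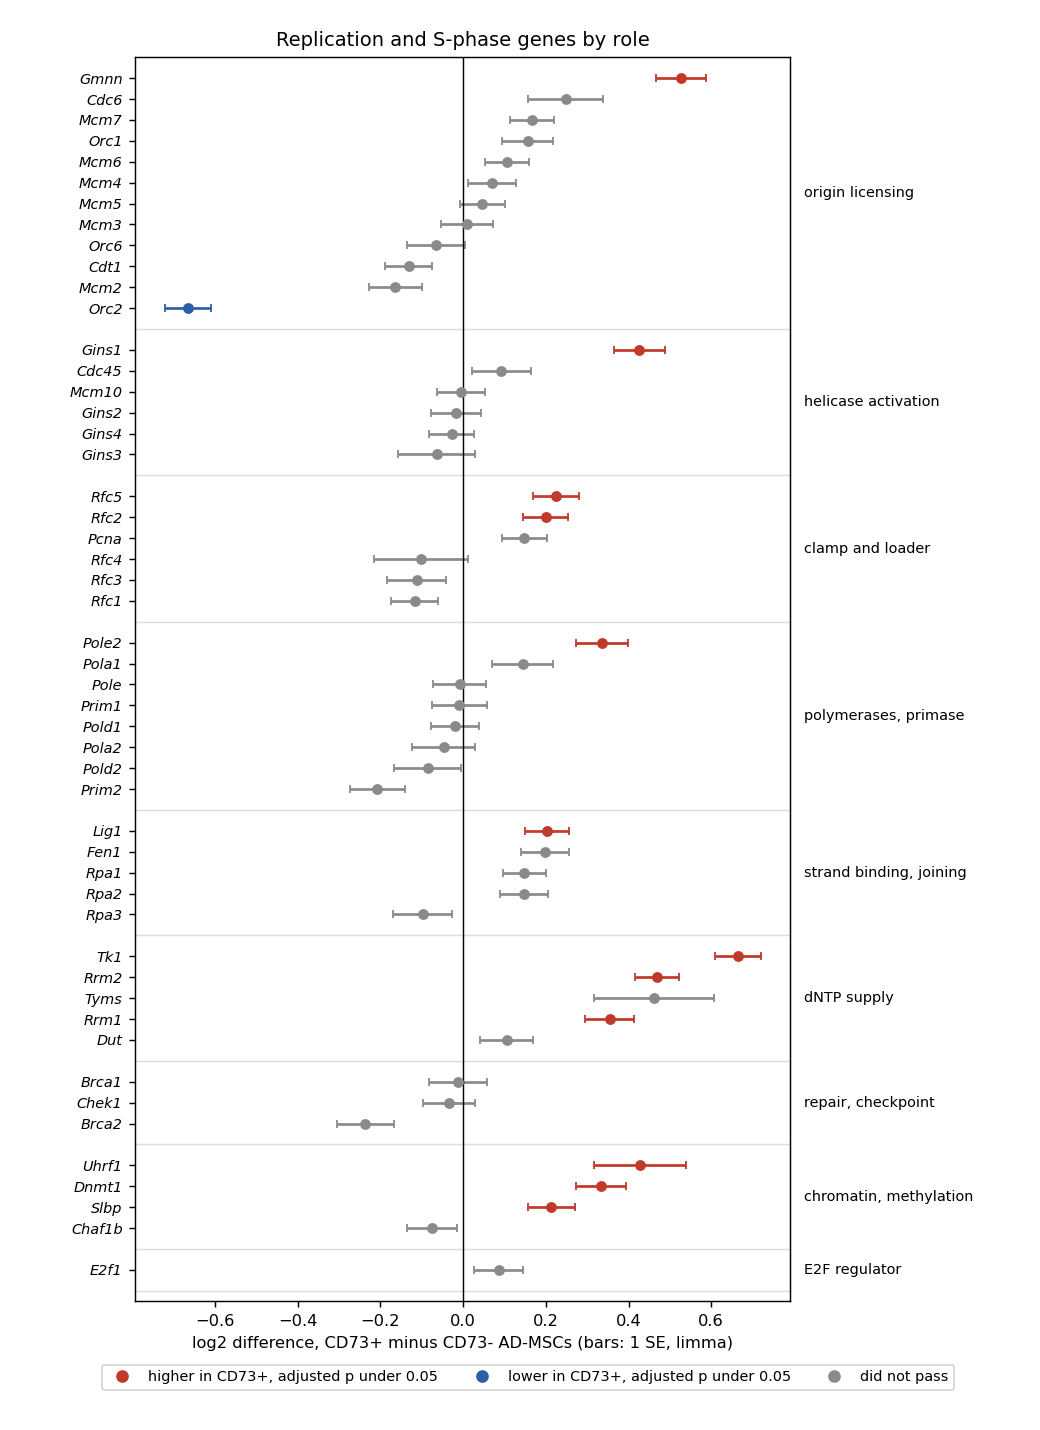
Log2 difference, CD73+ minus CD73- AD-MSCs (horizontal axis), of the 50 measured genes on the brightest probe set of each, ordered within 9 roles, with bars of 1 SE by limma (n = 3 each). Genes in red were higher and the gene in blue, Orc2, lower at an adjusted p under 0.05 on the deposited scale, and after scaling to the poly-A controls all 50 are higher; the differences run from 0.66 for Tk1 to -0.67 for Orc2.

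The 5 listed enzymes of deoxynucleotide supply all had positive differences, and 3 of them passed as higher (60%, against 10.1% of all genes). Of 27 other nucleotide genes, listed apart and given below, 2 were higher and 9 lower on the deposited scale. Tk1, the cytosolic thymidine kinase that salvages thymidine in S phase, had log2 signals of 8.94, 8.96 and 8.94 on the CD73+ arrays and of 8.33, 8.29 and 8.22 on the CD73- arrays. The subgroups did not overlap, and the gap was many times the spread within either. Its difference was 0.66 (SE 0.056 and adjusted p = 0.000398 by limma), a ratio of 1.58 and the largest rise among the 50 genes.
Ribonucleotide reductase makes deoxynucleotides from ribonucleotides. Rrm2, its small subunit, which cells make in S phase and destroy afterwards, had signals of 10.51, 10.54 and 10.47 on the CD73+ arrays and of 10.05, 10.04 and 10.03 on the CD73- arrays. It rose by 0.47 (SE 0.054 and adjusted p = 0.00124 by limma), and its other probe sets rose by 0.78 and 0.46. Rrm1, the large subunit, had 10.82, 10.78 and 10.90 on the CD73+ arrays and 10.53, 10.47 and 10.44 on the CD73- arrays, without overlap. It rose by 0.35 (SE 0.06 and adjusted p = 0.00602 by limma), while its other probe sets, at 0.16 and 0.15, did not pass.
Tyms, thymidylate synthase, had signals of 4.19, 4.17 and 3.77 on the CD73+ and 3.63, 3.77 and 3.34 on the CD73- arrays. Its mean level was at percentile 24.1 of all probe sets, and the subgroups met at 3.77 when rounded. Its difference of 0.46 did not pass (limma adjusted p = 0.067), nor did any of its 3 other probe sets. Dut, the dUTPase that keeps uracil out of DNA, had a difference of 0.11 (95% interval -0.044 to 0.26, limma adjusted p = 0.332).

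Of the 12 licensing genes, 1 was higher, 1 was lower on the deposited scale and 10 did not pass, so that 16.7% were called against 22.8% of all genes. Gmnn, or geminin, which binds Cdt1 from S phase to mitosis and so keeps origins from being licensed again, had signals of 8.65, 8.70 and 8.61 on the CD73+ arrays and of 8.20, 8.12 and 8.07 on the CD73- arrays. It rose by 0.53 (SE 0.06 and adjusted p = 0.00129 by limma). Its target Cdt1 had 10.09, 10.13 and 10.04 on the CD73+ and 10.16, 10.25 and 10.24 on the CD73- arrays. The 3 CD73+ values lay below the 3 others, but the difference of -0.13 did not pass (limma adjusted p = 0.173).
Of the 3 subunits of the origin recognition complex in the list, Orc1, Orc2 and Orc6, Orc2 alone passed, as lower on the deposited scale. Its signals were 8.91, 8.87 and 8.84 on the CD73+ arrays and 9.56, 9.56 and 9.50 on the CD73- arrays, a difference of -0.67 (SE 0.055 and adjusted p = 0.00039 by limma) and a ratio of 0.631. Both other probe sets of Orc2 were lower too, at -0.64 and -0.39, each with no overlap between the subgroups. After scaling to the poly-A controls the difference of Orc2 is 0.26, still the lowest of the 50. Orc1, the subunit that comes and goes with the cycle, had a difference of 0.16 (limma adjusted p = 0.134) and Orc6 one of -0.066 (limma adjusted p = 0.604).
Cdc6, which loads the helicase together with Cdt1, had 6.93, 6.78 and 6.61 on the CD73+ and 6.58, 6.55 and 6.45 on the CD73- arrays. The subgroups did not overlap, but the CD73+ arrays were spread widely and the difference of 0.25 did not pass (limma adjusted p = 0.106). It passed without CD73+ replicate 3, at 0.33 (limma adjusted p = 0.0345).

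None of the MCM helicase subunits Mcm2 to Mcm7 passed on the brightest probe set. Their differences ran from -0.16 for Mcm2 through 0.01 for Mcm3, 0.046 for Mcm5, 0.071 for Mcm4 and 0.11 for Mcm6 to 0.17 for Mcm7, and their 95% intervals together span -0.31 to 0.29. Mcm2 had signals of 9.22, 9.21 and 9.22 on the CD73+ and 9.46, 9.40 and 9.28 on the CD73- arrays, and its other probe set passed as lower at -0.33 (limma adjusted p = 0.038). Mcm7 had 11.03, 11.02 and 10.97 on the CD73+ and 10.82, 10.85 and 10.85 on the CD73- arrays, and 1 of its 3 other probe sets passed as higher at 0.26. Mcm2 and Mcm7, partners in 1 ring, lay on opposite sides of 0 on the deposited scale, each without overlap between subgroups. Mcm3, with 5 probe sets, had differences from -0.27 to 0.12, none of which passed.
Among the genes that turn the helicase on, Gins1, a GINS subunit, had signals of 7.57, 7.51 and 7.63 on the CD73+ arrays and of 7.12, 7.20 and 7.10 on the CD73- arrays. It rose by 0.43 (SE 0.061 and adjusted p = 0.00319 by limma). The other GINS subunits, Gins2, Gins3 and Gins4, had differences between -0.064 and -0.016, with 95% intervals that together span -0.28 to 0.15. Cdc45, the third part of the active helicase, and Mcm10, which helps to turn it on, had 0.093 (limma adjusted p = 0.461) and -0.0057 (limma adjusted p = 0.965).

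**Figure D2:**
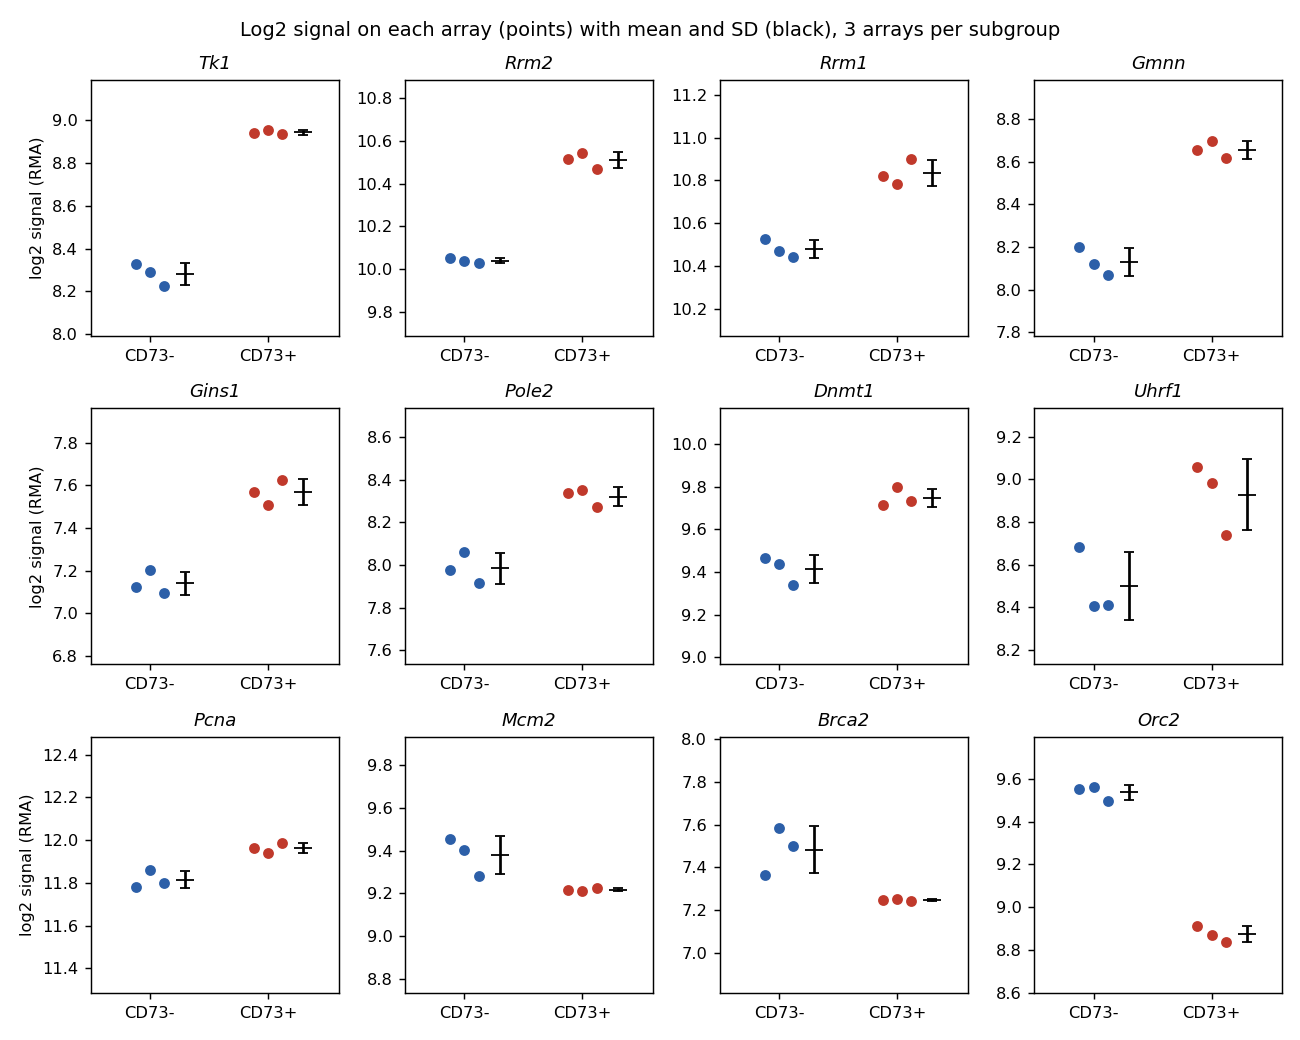
Log2 signal (vertical axis, RMA) of 12 of the genes on each array, 1 point per array, with the mean and SD of the 3 arrays of each subgroup in black; every panel spans the same range of log2 units. Tk1, Rrm2, Rrm1, Gmnn, Gins1, Pole2, Dnmt1 and Uhrf1 passed as higher, and Orc2, from 9.54 to 8.87, as lower on the deposited scale (higher, by 0.26, after scaling to the poly-A controls), while Pcna, Mcm2 and Brca2 did not pass although their subgroups do not overlap.

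The polymerase genes had small differences with 1 exception. Pole2, the accessory subunit of the leading strand polymerase epsilon, had signals of 8.34, 8.35 and 8.27 on the CD73+ arrays and of 7.98, 8.06 and 7.92 on the CD73- arrays. It rose by 0.34 (SE 0.062 and adjusted p = 0.00897 by limma). Pole, the catalytic subunit of the same enzyme, had a difference of -0.0083 (95% interval -0.16 to 0.14, limma adjusted p = 0.954). Pold1 and Pold2 of polymerase delta and Pola2 and Prim1 of the priming complex had differences from -0.085 to -0.0096 on their brightest probe sets. The other probe set of Pold1 had 0.24, without overlap between the subgroups, and did not pass (limma adjusted p = 0.0683). Pola1, the catalytic subunit of polymerase alpha, had 0.14 (limma adjusted p = 0.248), and Prim2, the large primase subunit, had -0.21 (limma adjusted p = 0.0764), with every CD73+ array below every CD73- array.
Pcna, the sliding clamp, had 11.96, 11.94 and 11.99 on the CD73+ and 11.78, 11.86 and 11.80 on the CD73- arrays. Its level was at percentile 98.9 of all probe sets, and its difference of 0.15 did not pass (limma adjusted p = 0.111) although the subgroups did not overlap.
The clamp loader subunits went both ways on the deposited scale, and scaling to the poly-A controls turns the negative values. Rfc5 rose by 0.22 (SE 0.056 and adjusted p = 0.0298 by limma) and Rfc2 by 0.20 (SE 0.054 and adjusted p = 0.0404 by limma), whereas Rfc4, Rfc3 and Rfc1 had -0.10, -0.11 and -0.12 and did not pass. Rfc1, the large subunit, had 8.39, 8.42 and 8.38 on the CD73+ and 8.58, 8.47 and 8.50 on the CD73- arrays of its brightest probe set. Its other probe sets both passed as lower, at -0.27 (limma adjusted p = 0.0326) and -0.53 (limma adjusted p = 0.000998), on the deposited scale.

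Of the genes that cover and join single strands, Lig1, the ligase that seals Okazaki fragments, rose by 0.20 (SE 0.053 and adjusted p = 0.0358 by limma), from a mean log2 signal of 8.78 (SD 0.03, n = 3) on the CD73- to 8.98 (SD 0.022, n = 3) on the CD73+ arrays. Fen1, the nuclease that trims these fragments, had 0.20 (limma adjusted p = 0.0545) on its brightest probe set and passed on the other at 0.35 (limma adjusted p = 0.00428). The single-strand binding subunits Rpa1 and Rpa2 both had 0.15 and did not pass (limma adjusted p = 0.0943 and 0.131), and the second probe set of Rpa1 passed at 0.21. Rpa3, the smallest subunit, had -0.097 (limma adjusted p = 0.43). Of the 5 genes of this group, 1 passed as higher on the brightest probe set (20%, against 10.1% of all genes). Lig1, Fen1, Rpa1 and Rpa2 each had all CD73+ arrays above all CD73- arrays, at differences close to 0.2 or below. The same held for 18.1% of all genes.

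Of the genes that copy chromatin marks and chromatin itself onto new DNA, 3 of 4 passed as higher (75%, against 10.1% of all genes). The calls of Uhrf1 and Slbp depended on single arrays, as given below. Dnmt1, which copies DNA methylation onto the new strand, had signals of 9.72, 9.80 and 9.73 on the CD73+ arrays and of 9.47, 9.44 and 9.34 on the CD73- arrays. It rose by 0.33 (SE 0.061 and adjusted p = 0.00835 by limma), and of its other probe sets 1 passed at 0.44. Uhrf1, which brings Dnmt1 to newly copied DNA, had 9.06, 8.98 and 8.74 on the CD73+ and 8.68, 8.41 and 8.41 on the CD73- arrays. It rose by 0.43 (SE 0.11 and adjusted p = 0.0334 by limma) with a wide spread, and by 0.46 (limma adjusted p = 0.00657) on its second probe set. Slbp, which binds the stem-loop of histone mRNAs and peaks in S phase, rose by 0.21 (SE 0.056 and adjusted p = 0.0351 by limma). Chaf1b, a subunit of the chromatin assembly factor, had -0.075 (limma adjusted p = 0.468).
No gene of the repair and checkpoint group passed. Brca2, which loads the recombinase on broken forks, had 7.25, 7.25 and 7.24 on the CD73+ and 7.37, 7.58 and 7.50 on the CD73- arrays. The CD73+ arrays were tightly grouped below all others, at a difference of -0.24 (limma adjusted p = 0.0526). After quantile normalization Brca2 passed as lower, at -0.25 (limma adjusted p = 0.0408). Brca1, its partner in recombination, had -0.013 (limma adjusted p = 0.932), and Chek1, the kinase of the replication checkpoint, had -0.034 (limma adjusted p = 0.792). E2f1, a transcription factor that drives S-phase genes, had 0.086 (95% interval -0.052 to 0.22, limma adjusted p = 0.396).

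The calls were not equally firm. Those of Tk1, Gmnn, Rrm2, Gins1, Rrm1, Pole2, Dnmt1 and Orc2 held without any 1 array. Those of Rfc2, Rfc5 and Lig1 ended without any 1 array (limma adjusted p 0.0529 to 0.123). That of Slbp held only without CD73+ replicate 3 (limma adjusted p = 0.0382) and ended without each of the other 5 arrays (up to 0.133), and that of Uhrf1 ended without CD73- replicate 2 or 3 or CD73+ replicate 1 or 2 (limma adjusted p up to 0.113).
Over all 114 probe sets of the 50 genes, 19 were higher and 6 were lower, against 9.79% and 9.11% of all probe sets. Of 38 genes with several probe sets, 3 (Rrm2, Uhrf1 and Orc2) passed in 1 direction on every probe set, 24 passed on none, 11 passed on some, and none passed both ways. How often the probe sets of a gene differ in this way over all genes was not counted. Probe sets of Fen1, Mcm7, Rpa1, Rfc1 and Mcm2 passed where the brightest of the gene did not. In 6 genes, Rrm1, Dnmt1, Gins1, Pole2, Rfc2 and Slbp, the brightest passed and another probe set did not.

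**Figure D3:**
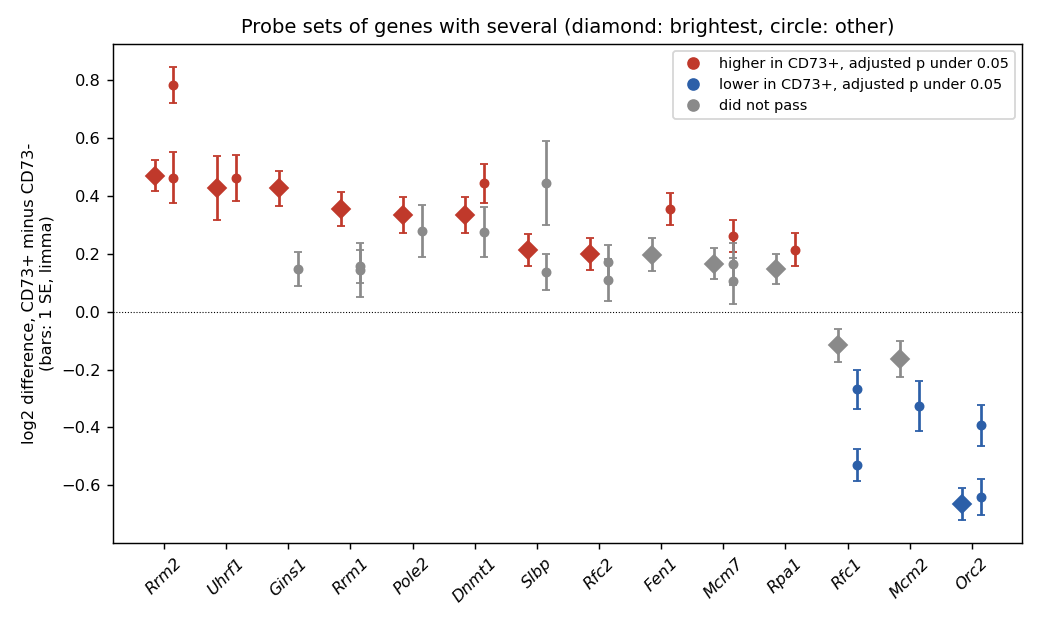
Log2 difference, CD73+ minus CD73- AD-MSCs (vertical axis), of every probe set of the 14 genes that had several and at least 1 past the threshold, with the brightest probe set as a diamond, the others as circles and bars of 1 standard error from limma. The probe sets of a gene lay on the same side of 0, with those of Rfc1, Mcm2 and Orc2 below it on the deposited scale; the values of Orc2 run from -0.67 to -0.39, and its brightest one is above 0 after scaling to the poly-A controls.

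Other genes of replication were listed apart from the 51, and directions are again those on the deposited scale. Of 48 measured, 6 were higher and 6 were lower (12.5% each, near the 10.1% and 12.6% of all genes), with a median of 0.056, and after scaling to the poly-A controls all 48 were higher. Ccna2, the cyclin of S phase and G2, rose by 0.66 (limma adjusted p = 0.000329), and Cdc7, the kinase that fires origins, by 0.57 (limma adjusted p = 0.004). Orc4, another subunit of the origin recognition complex, had a difference of -0.66 (limma adjusted p = 0.000483), and Recql4, a helicase that acts as origins fire, one of -0.55 (limma adjusted p = 0.0011). Orc5 had -0.32 (limma adjusted p = 0.0106), and Orc3 had -0.04 (limma adjusted p = 0.733) with overlap between the subgroups. With Orc2, Orc4 and Orc5, 3 of the 6 subunits passed as lower on the deposited scale, against 12.6% of all genes. Orc1, Orc3 and Orc6 did not pass. Orc3 and Orc5 were named for their place beside Orc2, and the 6 subunits counted together, after the values were seen.
A separate list held other genes of nucleotide synthesis and turnover. Of 27 measured, 2 were higher (7.41%, against 10.1% of all genes) and 9 were lower on the deposited scale (33.3%, against 12.6%), with a median of -0.079, whereas 26 were higher and 0 lower after scaling to the poly-A controls. Samhd1, which breaks deoxynucleotides down, had the lowest value at -0.80 (limma adjusted p = 0.000217), and Shmt1, a folate enzyme of thymidylate synthesis, had -0.43 (limma adjusted p = 0.00282). Rrm2b, another form of the small subunit of ribonucleotide reductase, was lower too, at -0.43 (limma adjusted p = 0.0023). It was named for its place beside Rrm2 after its value was seen. Cmpk1, a kinase of pyrimidine nucleotides, rose by 0.34 (limma adjusted p = 0.00643) and Prps2, which makes the ribose precursor, by 0.28 (limma adjusted p = 0.0206). The count of lower genes was 3 without CD73- replicate 2 or CD73+ replicate 1, 4 without CD73+ replicate 2, and 5 without CD73- replicate 1 or CD73+ replicate 3.
Mitosis genes, which act in the cell cycle after replication, were mostly higher. Of 35 measured, 32 were higher (91.4%, against 10.1% of all genes) and 1 was lower on the deposited scale, with a median of 0.48 against 0.079 for the 50 replication and S-phase genes. Ccnb2, which drives entry into mitosis, rose by 0.97, and Cdca3, which acts on mitotic entry, by 0.90, while Smc4, a condensin subunit, had -0.18 (limma adjusted p = 0.0469), a call that ended without any 1 array and after scaling to the poly-A controls. Averaged over genes after each gene's mean was subtracted, the mitosis genes stood at 0.23 to 0.24 on the CD73+ arrays and at -0.28 to -0.20 on the CD73- arrays. On the same scale the replication and S-phase genes stood at 0.023 to 0.061 and at -0.096 to -0.018. In both the CD73+ arrays lay above the CD73- arrays, and CD73- replicate 3 had the lowest value.

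**Figure D4:**
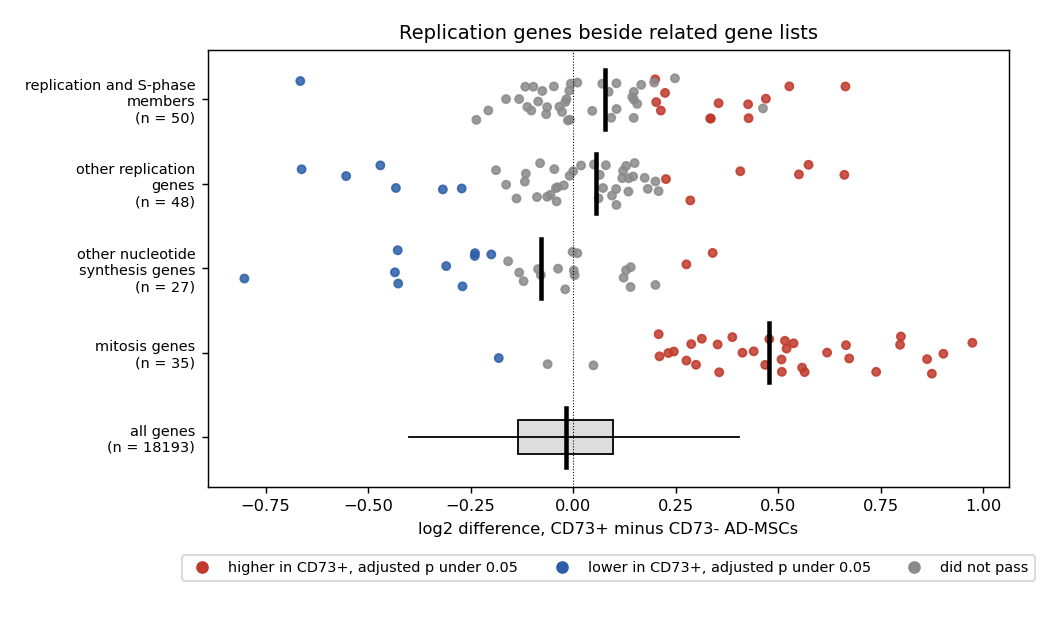
Log2 difference, CD73+ minus CD73- AD-MSCs (horizontal axis), of each measured gene of 4 lists, 1 point per gene, with a black bar at the median; for all 18193 genes the box spans the 25th to 75th percentile, the line the 5th to 95th percentile, and the bar marks the median. Genes in red (higher) and blue (lower, on the deposited scale) had a limma adjusted p under 0.05, and no gene is blue after scaling to the poly-A controls; the medians are 0.079, 0.056, -0.079 and 0.48 from top to bottom, and -0.018 for all genes.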

How the data were processed

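Total RNA of 3 CD73+ and 3 CD73- AD-MSC samples was hybridised to Affymetrix mouse arrays, 1 sample per array. The authors deposited log2 signals per probe set made with RMA, which corrects background, quantile-normalizes arrays and summarises probes, so levels are relative within each array; its version is not given in the sources used here. No read depth exists for arrays, and their number limits the precision.

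From 45101 probe sets, 64 control probe sets were set aside and 45037 tested with limma 3.58.1 (R 4.3.3) by subgroup, and p-values were adjusted by Benjamini-Hochberg over the whole table (threshold 0.05). Of the tested probe sets, 34945 carried 1 gene symbol, 932 several and 9160 none here. A gene was read from its brightest probe set with 1 symbol. All 50 measured genes matched RefSeq symbols. The genes and lists were chosen with earlier results of these data known. Every measured gene of the list is named. Of each related list, up to 2 genes with the largest rises and 2 with the largest falls are named. Orc3, Orc5 and Rrm2b are named besides, chosen after their values were seen.

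Replicate numbers gave no sign of pairing: deviations of same-numbered arrays correlated at -0.138, 0.0276 and -0.136. Those of arrays with unlike numbers correlated at -0.0631 to 0.171. With 3 arrays per subgroup this check cannot exclude pairing. Scaling, filtering, limma's options, a t-test, probe set averaging and leaving out each array were tried as alternatives. The code was tested on simulated data.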

Additional observations from a re-analysis of the deposited data

How the results depend on the processing

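The count of higher genes, 12 as reported, was 9 with the replicate number as a block, 8 after median centring, 19 among probe sets above the median level, 50 after scaling to the poly-A controls, and 7 to 11 when 1 array was left out. With the block Rfc2, Rfc5, Lig1 and Slbp no longer passed and Tyms did. Of the genes that did not pass as reported, Brca2 passed as lower in 8 of the 17 alternatives. Fen1 passed as higher in 9 of them, poly-A scaling included. The count of 1 lower gene was 2 after quantile normalization, median centring or cyclic loess, 4 with the level filter, 5 with limma's trend, 3 with array weights, 4 with the mean of a gene's probe sets, 0 with poly-A scaling and 1 to 2 without 1 array. The median of 0.079 was 0.046 after median centring, 1.01 with poly-A scaling and 0.049 to 0.10 without 1 array.

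Over all probe sets, 4408 were higher and 4105 lower. Poly-A scaling gave 44707 and 33, the replicate block 3080 and 2713, and leaving out 1 array 2794 to 4199 and 2525 to 3907. Among the 22519 probe sets above the median level, 5181 were higher and 5111 lower. Of the other replication genes, poly-A scaling called 48 higher and 0 lower. Of the nucleotide synthesis genes, 2 were higher and 9 lower: the higher count was 1 after median centring, 26 with poly-A scaling, 7 with the filter, 6 with the trend, 5 with the methods' t-test and 1 to 3 without 1 array, and the lower count was 3 with the block, 0 with poly-A scaling and 3 to 8 without 1 array. The 1 lower mitosis gene was 0 with the block, median centring, cyclic loess, poly-A scaling, the robust fit and without any 1 array (0 to 0).

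With poly-A scaling, which adds the same amount to every gene, all 22 negative differences turned: Orc2 0.26, Orc6 0.86, Cdt1 0.79, Mcm2 0.76, Mcm10 0.92, Gins2 0.91, Gins3 0.86, Gins4 0.90, Rfc1 0.81, Rfc3 0.81, Rfc4 0.82, Pola2 0.88, Prim1 0.92, Prim2 0.72, Pold1 0.91, Pold2 0.84, Pole 0.92, Rpa3 0.83, Brca1 0.91, Brca2 0.69, Chek1 0.89 and Chaf1b 0.85. Why the poly-A controls differ between subgroups was not tested. Over all measured genes and alternatives, 728 values kept their side of the threshold, counting those that changed sign where neither fit passed. Another 63 newly passed and 36 no longer passed, each with the same sign. The remaining 22 changed sign with a pass in either fit. Signal over background was not measured here, and Tyms was the only measured gene left out by the level filter.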
